A study of Homo sapiens with 3 samples.

Results

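Wnt and beta-catenin pathway genes were examined for binding by ARID1B in HEK293FRT cells, a line derived from human embryonic kidney cells. ARID1B is a subunit of BAF (SWI/SNF) complexes, which remodel chromatin by shifting nucleosomes. The series held 3 samples of this line, without a named treatment or genotype change: 2 replicates of ARID1B chromatin immunoprecipitation followed by sequencing (ChIP-seq) and 1 input, which was not analysed here. Separate cultures are not stated for the replicates, so the spread between them may be technical only.

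The 48 genes were picked by their role in the pathway, a rule that uses no peak value. Earlier results of these data were known at that time, so the choice was not blind to the data. Of the 48 genes, 47 were found by symbol among 19866 protein-coding genes, and SP5L was not matched. A gene was credited with peaks overlapping its body (called inside), within 1000 bp of either end, within 100 kb of the body, or for which it was the nearest protein-coding gene. The peak lists held 1792 and 1820 peaks, which overlapped in 1313 regions called shared here. Of those regions, 13 were credited to the 47 genes, 12 of them within 100 kb. Each peak carries a score given by the authors, with a median of 74 in replicate 1 and 75 in replicate 2. A percentile below is the percentage of a list's peaks that score the same or less. The lists hold no read counts, so the depth is unknown. All positions are on hg38.

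Wnt proteins bind frizzled receptors with LRP5 or LRP6. This halts a cytoplasmic complex of AXIN, APC and the kinases GSK3 and CK1 that otherwise marks beta-catenin for destruction. Beta-catenin then enters the nucleus and activates target genes with TCF/LEF factors. The pathway controls cell fate in the embryo, the developing kidney included, and ARID1B-containing complexes have been linked to its restraint.

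The highest-scoring region among the members lay beside NLK, the gene of Nemo-like kinase, which phosphorylates TCF/LEF factors and lowers their activity. The replicate 1 peak at chr17:28041251-28041768 scored 541 and the replicate 2 peak at chr17:28041278-28041781 scored 776. These are percentiles 99.3 and 99.5 of the respective lists. By the lower of its percentiles the region ranked 11 among the 1313 shared regions. It ended 896 bp from the low-coordinate end of NLK (chr17:28042677-28206074), which by the known direction of that gene is its transcription start.

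The same region overlapped the start of LOC105371709, a long non-coding RNA gene on the minus strand. That start, at position 28041720, is 957 bp from the low-coordinate end of NLK. RefSeq's promoter window of this RNA (GRCh38.p14, minus strand, chr17:28041671-28041970, 250 bases before to 50 after the start) is shown because it is the only promoter window that any of the 13 regions reached. Capitals mark the 111 bases, positions 190 to 300, that the shared region covers:
LOC105371709: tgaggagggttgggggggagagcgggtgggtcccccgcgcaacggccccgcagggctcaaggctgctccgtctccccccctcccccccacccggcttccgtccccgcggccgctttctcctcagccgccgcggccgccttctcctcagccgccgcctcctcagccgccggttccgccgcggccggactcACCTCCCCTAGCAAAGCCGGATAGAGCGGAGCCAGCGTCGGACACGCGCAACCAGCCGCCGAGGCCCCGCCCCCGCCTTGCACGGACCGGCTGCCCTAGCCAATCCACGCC

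The window has a GC content of 75.7%, against a median of 58.7% over 35116 RefSeq promoter windows. Both strands were searched for 5 short motifs. A GC box (GGGCGG) matched once on the reverse strand, at position 256, within the covered bases, and 45.0% of all windows hold a match. The TCF/LEF core CTTTGA, present in 12.9% of windows, had no match in these 300 bases. Neither did the AP-1 site TGANTCA (7.71% of windows), the TEAD core GGAATG (14.0%) or the nuclear receptor core AGGTCA (13.8%). The shared region is 531 bp wide, and its part outside this window was not searched. No promoter window of NLK was in the table used here.

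Among the TCF/LEF genes, TCF7L2 had a shared region. TCF7L2 encodes TCF4, the partner of beta-catenin in many epithelia. The region at chr10:112956665-112957017 scored 92 and 90, percentiles 61.9 and 61.4, so both replicates placed it just above the middle of their lists. It lay inside the gene (chr10:112950247-113167678), 6.42 kb downstream of the first of 3 listed starts. TCF7L2 held 2 further peaks of replicate 1 alone, at chr10:112959529-112959814 and chr10:113093605-113093805, with scores of 23 and 38. Both are weak, at percentiles 3.24 and 15.3.

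LEF1, which encodes another beta-catenin partner, had a peak of replicate 2 alone inside the gene, at chr4:108135601-108135851. Its score was 43, percentile 20.3. The closest shared region was 2243 kb away. TCF7L1, whose product acts mostly as a repressor, lay 235 kb from a shared region, and TCF7, a T cell factor gene, 2272 kb.

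Of 12 ligand genes, WNT5A and WNT5B had a shared region within 100 kb. WNT5A encodes a ligand that signals largely without beta-catenin. Its region at chr3:55491346-55491887 scored 308 in replicate 1 and 234 in replicate 2, percentiles 96.6 and 92.2. By the lower percentile it ranked 97 of 1313 and was second to NLK among the members. The region lay inside the annotated body (chr3:55465715-55505263) but 4.04 kb upstream of the nearest of 2 listed starts. The outer end of the annotated gene was 13.4 kb farther upstream of the region.

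The region credited to WNT5B, a close relative of WNT5A, was among the weakest of both lists. It scored 25 and 20 at chr12:1576564-1576980, percentiles 3.74 and 2.2. It lay 40.1 kb upstream of WNT5B and inside another gene, FBXL14. The other ligand genes had no peak of either list within 100 kb. WNT2 lay 151 kb from the closest shared region, WNT3A 278 kb and WNT7A 559 kb. Longer distances were measured at WNT3 (831 kb), WNT1 (956 kb), WNT7B (1245 kb) and WNT2B (1461 kb). WNT11 and WNT4 were 3813 and 4329 kb away. RSPO3, which encodes an R-spondin that amplifies Wnt signals through LGR receptors, was 1295 kb away.

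RNF43 had the most regions of any member. It encodes a membrane ubiquitin ligase that removes frizzled receptors from the cell surface. It held 3 shared regions within 11.3 kb, all inside the gene (chr17:58352500-58417534). The region nearest to a listed start, at chr17:58398685-58399146, lay 3.58 kb downstream of the inner of 2 starts and scored 115 and 153. The middle region, at chr17:58391457-58391778, scored 53 and 25 and stood at percentile 3.96 in replicate 2. The region farthest into the gene, at chr17:58387843-58388177, scored 121 and 80. Both replicates thus gave the middle region the lowest score. Among all protein-coding genes 30 (0.151%) held 3 or more shared regions. Of the 14862 genes no longer than RNF43, which spans 65.0 kb, 3 did, RNF43 included. RNF43 was singled out because it held the most regions, and its own length set this limit. These counts therefore describe the gene and give no measure of how unusual it is. Where regions within 10 kb of each other are joined, its 3 regions count once.

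**Figure D1:**
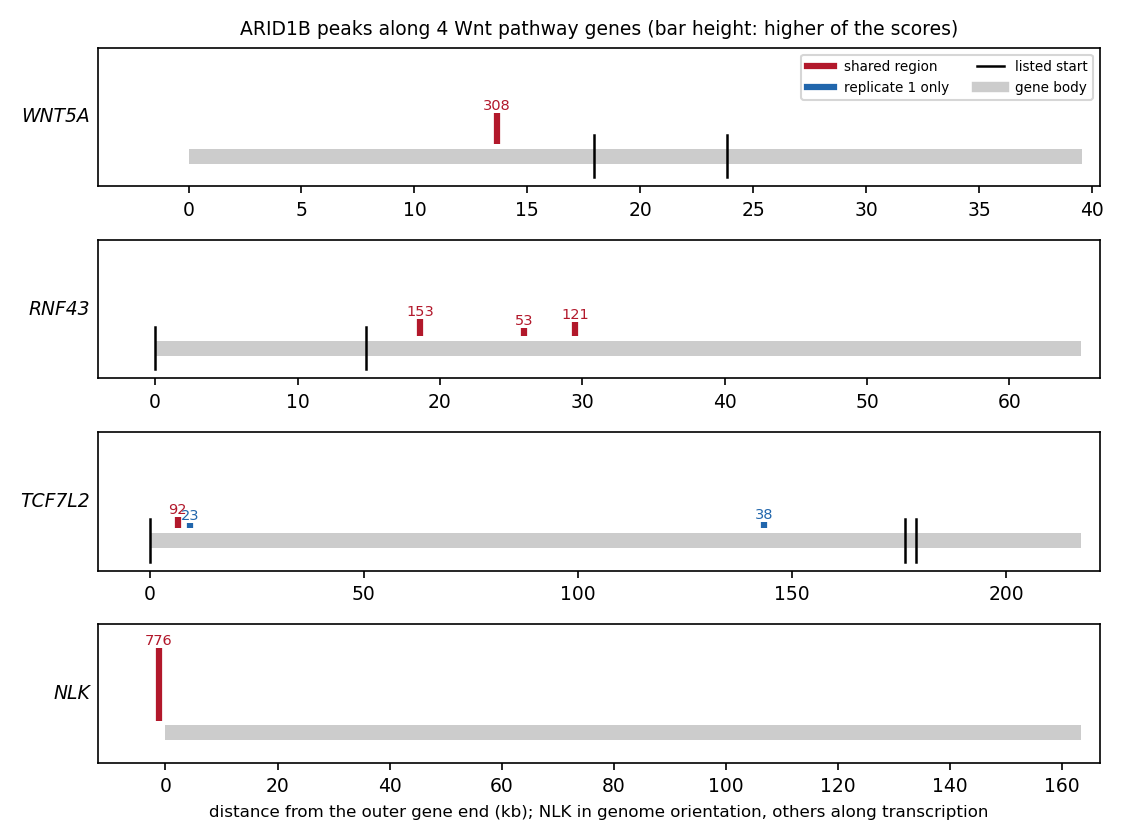
Peaks along WNT5A, RNF43, TCF7L2 and NLK; the horizontal axis is the distance in kb from the outer gene end, and the height of each coloured bar is the higher of the region's scores, printed above it. The NLK region (776) stands just outside the gene, the WNT5A region (308) upstream of both listed starts, and the 3 RNF43 regions downstream of both.

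LGR5, an R-spondin receptor gene known as a stem cell marker, was the nearest gene to a region 12.2 kb outside its low-coordinate end, upstream by the known direction of the gene. That region, at chr12:71426676-71426916, scored 79 and 50, percentiles 54.9 and 26.8. A pair of frizzled genes were reached only by distance. The region credited to FZD5 (chr2:207683861-207684392; scores 91 and 83) lay 78.2 kb from it and closer to CCNYL1. The region credited to FZD3 (chr8:28445378-28445660; scores 110 and 49) lay 48.6 kb from it and inside FBXO16. LRP6, the co-receptor gene, had a peak of replicate 2 alone 53.1 kb away, which scored 17 and lay closer to MANSC1.

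The remaining receptor genes had no peak of either list within 100 kb. LGR4 was 156 kb, FZD8 242 kb and FZD2 886 kb from the closest shared region, and LRP6 itself 509 kb. FZD4, LRP5, ZNRF3 and FZD6 were 1402 to 1757 kb away. FZD7 was 3242 kb away, and FZD10 and FZD1 were 5247 and 5325 kb away. ZNRF3 is the paralogue of RNF43 with the same role, and it had 0 peaks where RNF43 had 3 shared regions.

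No gene of the destruction complex and transducers, a class in which the beta-catenin gene was also counted, had a shared region within 100 kb. The count was 0 of 9 genes, with an upper exact 95% bound of 33.6%, which includes the 11.8% of all protein-coding genes. The closest was CTNNB1, the beta-catenin gene, with a peak of replicate 2 alone at chr3:41159854-41160089, 39.4 kb upstream of its start, which scored 52. The closest shared region to CTNNB1 was 210.0 kb away. The scaffold genes AXIN1 and APC lay 237 and 357 kb from a shared region. AXIN2, a scaffold gene that is also a classical Wnt target, was 941 kb away. The dishevelled genes DVL2, DVL1 and DVL3, whose products relay the receptor signal, lay 345, 393 and 1630.0 kb away. The kinase genes CSNK1A1 and GSK3B were 2220.1 and 4673 kb away.

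Of 6 matched target genes, FGF9 and NOTUM had a shared region within 100 kb. FGF9 encodes a fibroblast growth factor that keeps kidney progenitor cells in the embryo. A region at chr13:21663208-21663561 scored 97 and 100, percentiles 64.7 and 67.0. It lay 7.51 kb from the low-coordinate end of FGF9, the upstream side by the known direction. FGF9 was also the nearest gene to a region 245 kb beyond its other end, at chr13:21949857-21950194, which scored 122 and 58.

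NOTUM encodes an enzyme that inactivates Wnt proteins by removing their lipid. The region credited to it, at chr17:81866978-81868790, was 1813 bp wide, where the median shared region was 369 bp wide. It scored 117 and 203, but lay 83.7 kb from NOTUM and inside another gene, ARHGDIA. Another 2 peaks of replicate 2 alone, with scores of 51 and 35, lay beside P4HB and ARHGDIA. CCND1, the cyclin D1 gene, was 542 kb from the closest shared region and MYC 3658 kb. LGR5 and RNF43, described above by their role at receptors, are known as targets too and had regions close by or inside. The feedback inhibitor genes NKD1 and DKK1 were 846 and 1850.0 kb away.

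**Figure D2:**
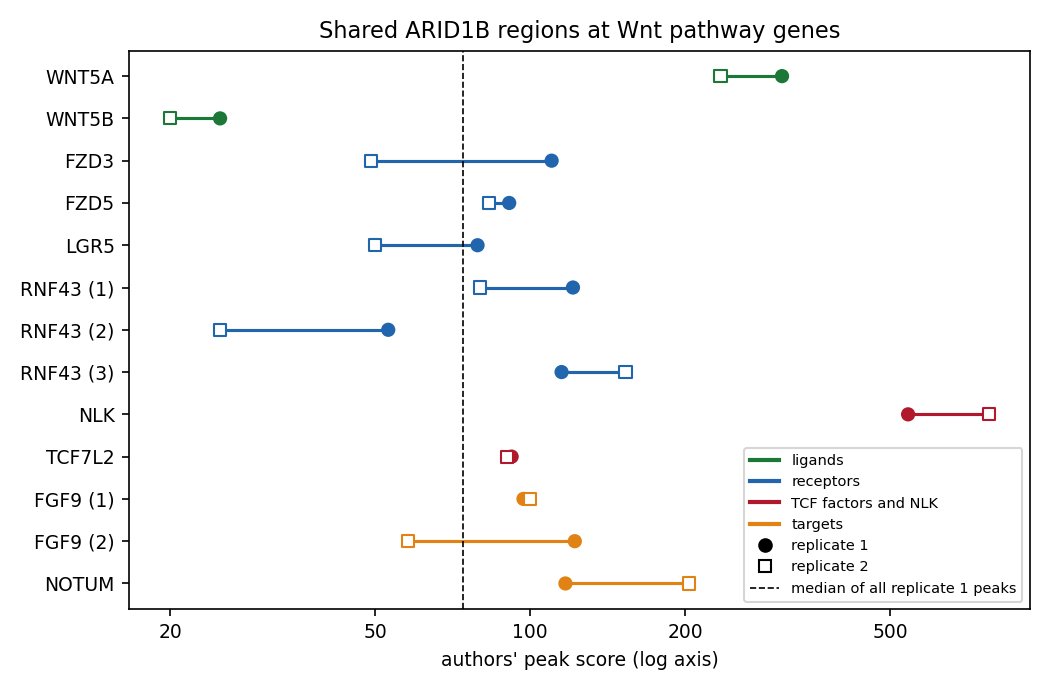
Authors' peak scores (log axis) of the 13 shared regions credited to the members, with replicate 1 as filled circles and replicate 2 as open squares; colours give the class, numbers in brackets order the regions of a gene by position, and the dashed line is the median of replicate 1 (74). NLK and WNT5A stand apart at 234 or more in both replicates, and the others lie at 203 or less.

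The scores of the members' regions were spread over the lists. The median of the lower percentile was 57.5 over the 13 regions and 49.6 over all 1313 shared regions. In 9 of the 13 regions replicate 1 had the higher score and the higher percentile, and in 4 replicate 2 had both. Over all shared regions the score was higher in replicate 1 in 47.6% and in replicate 2 in 50.9%. The scale of the score is unstated, so scores of different lists may not be comparable. The 9 were those of WNT5A, WNT5B, FZD3, FZD5, LGR5 and TCF7L2, 2 of RNF43 and the far region of FGF9. Of the peaks within 100 kb of members, 2 of 14 in replicate 1 and 5 of 17 in replicate 2 had no partner in the other list, against 26.5% and 27.6% of all peaks.

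Counts over the members were then set beside those over all protein-coding genes. At a gene end, 1 of 47 members (2.13%, exact Clopper-Pearson 95% interval 0.0539 to 11.3) had a shared region, NLK, against 1.05% of all genes. Inside the gene, 3 of 47 (6.38%, 1.34 to 17.5) had one, WNT5A, RNF43 and TCF7L2, against 2.8%. Within 100 kb it was 10 of 47 (21.3%, 10.7 to 35.7) against 11.8%. As the nearest gene to a region, 6 of 47 members were counted (12.8%, 4.83 to 25.7) against 5.02% of all genes. Each of these intervals includes the value over all genes, those within 100 kb and for the nearest gene narrowly, and they cover counting error only. With a 50 kb flank, 8 of 47 members had a shared region (17.0%, 7.65 to 30.8), and the 7.54% of all genes fell just below the interval. When peaks under each list's median score were dropped, the all-gene shares within 100 kb (6.12%) and for the nearest gene (2.65%) also fell below the members' intervals. Without replicate 1, that was so for the nearest gene (17.0%, 7.65 to 30.8, against 6.64%). With a 200 kb flank, 12 of 47 members had a region (25.5%, 13.9 to 40.3), and the 19.6% of all genes lay within the interval. At the other settings the all-gene shares also lay within the members' intervals. No test of the list was made.

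Members were longer than most genes, with a median of 40.9 kb against 24.5 kb, and the part of length in these counts was not tested. Counted by length, the members' bodies with 100 kb on each side spanned 12.4 Mb and held 12 shared regions, 0.965 per Mb (exact Poisson 95% interval 0.499 to 1.69). The same windows of all protein-coding genes held 0.507 per Mb, just above the lower bound of that interval. The all-gene value fell below the members' interval with a 50 kb flank (1.29 per Mb, 0.62 to 2.38, against 0.512). It also did so with the upper scores of each list (0.643, 0.278 to 1.27, against 0.247) and without replicate 1 (1.37, 0.796 to 2.19, against 0.719). Without RNF43 the members' value was 0.740 per Mb (0.338 to 1.40), an interval that includes the 0.507 of all genes. The all-gene value also lay within the interval with a 200 kb flank (0.733, 0.419 to 1.19, against 0.501). The same held with regions within 10 kb counted once (0.804, 0.386 to 1.48, against 0.473), under the other overlap rules and without replicate 2. The median distance from a gene to its closest shared region was 831 kb for members and 796 kb for all protein-coding genes, so the typical member was no nearer to a region than the typical gene.

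**Figure D3:**
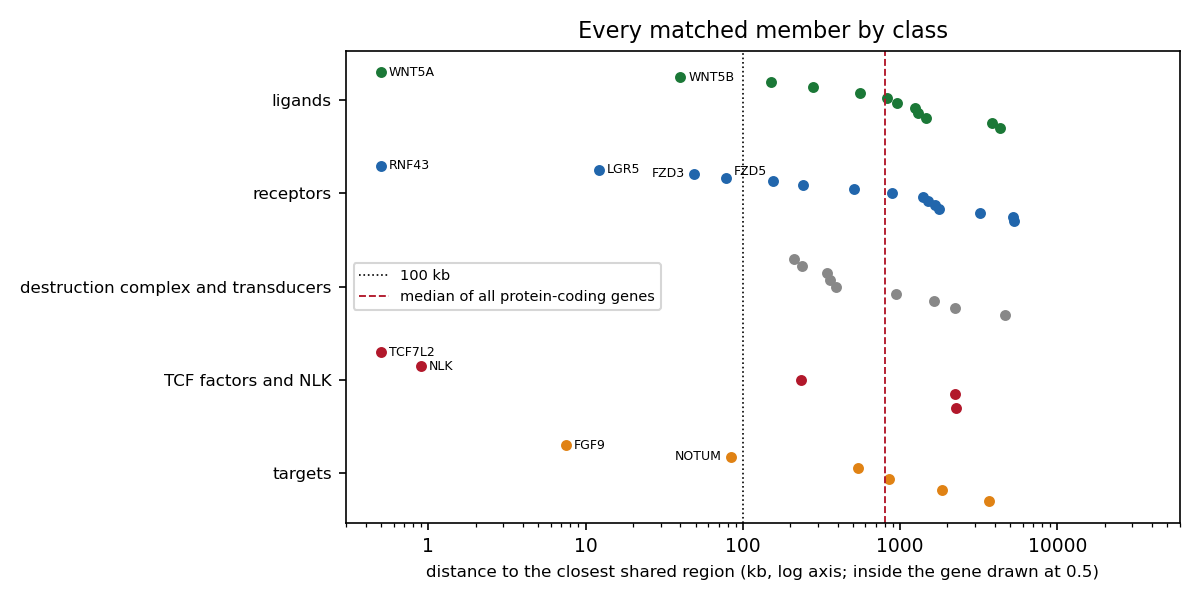
Distance in kb (log axis) from each of the 47 matched members to its closest shared region, by class, with regions inside the gene drawn at 0.5; the dashed line is the median of all protein-coding genes (796 kb) and the dotted line marks 100 kb. The destruction complex and transducers (9 genes) have no point left of the dotted line, where 11.8% of all protein-coding genes lie.

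By class, a shared region within 100 kb was found at 2 of 12 ligand genes (16.7%, exact 95% interval 2.09 to 48.4) and 4 of 15 receptor genes (26.7%, 7.79 to 55.1). It was found at 2 of 5 genes of TCF factors and NLK (40%, 5.27 to 85.3) and 2 of 6 targets (33.3%, 4.33 to 77.7), against 0 of 9 in the destruction complex and transducers. The intervals of all 5 classes overlap, and each includes the 11.8% of all protein-coding genes. AXIN2, LGR5, RNF43 and ZNRF3 are also known as targets. With these counted there, 4 of 10 targets (40%, 12.2 to 73.8) had a region, and 11.8% lies just below that interval. The 4 moved genes were picked by hand, so this value depends on that choice. LEF1 and TCF7, without a shared region within 100 kb, stayed in their class. With so few genes a difference between the classes was not detectable. In 4 of the 10 genes, WNT5B, FZD3, FZD5 and NOTUM, the region lay inside or closer to another gene. As the nearest gene to a region, 1 of 12 ligand, 2 of 15 receptor and 1 of 6 target genes were counted. It was 0 of 9 in the destruction complex and transducers. In the class of TCF factors and NLK it was 2 of 5, NLK and TCF7L2 (40%, 5.27 to 85.3). The 5.02% of all genes lies just below that interval and inside those of the other classes, and no test was made.

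**Figure D4:**
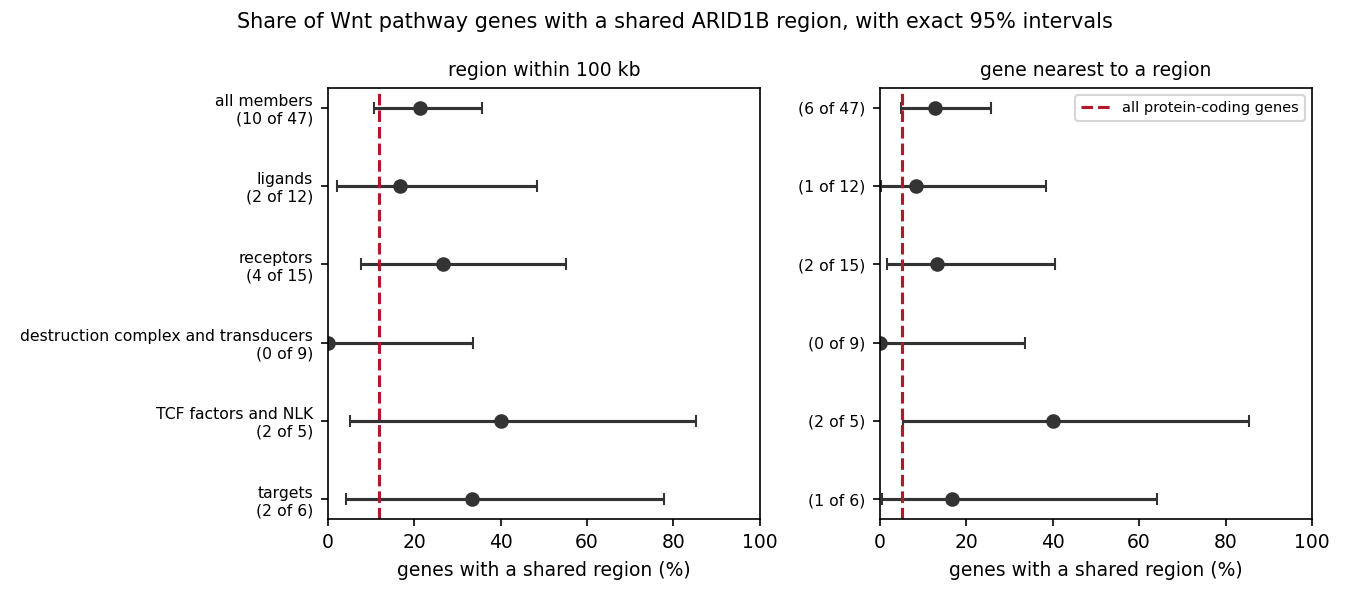
Percentage of members with a shared region within 100 kb (left) and of members that are the nearest gene to a shared region (right), by class; points are shares, bars are exact 95% intervals, counts are given at the axis and the dashed lines are the shares over all protein-coding genes (11.8% and 5.02%). The class intervals are wide and overlap.

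Other genes of the pathway were taken from a list written by role, of which 122 were found and are distinct. Within 100 kb, 14 of 122 (11.5%, exact 95% interval 6.42 to 18.5) had a shared region, against 11.8% of all genes. Inside the gene it was 5 of 122 (4.1%, 1.34 to 9.31), against 2.8%, and at an end 1 of 122 (0.82%), against 1.05%. As the nearest gene to a region, 16 of 122 were counted (13.1%, 7.69 to 20.4), and the 5.02% of all genes lies below that interval. Among genes for ligands and their secretion, RSPO2, a relative of RSPO3, held a region at chr8:108042890-108043328 with scores of 245 and 136. WLS, whose product carries Wnt proteins to the cell surface, held one at chr1:68217113-68217435 with scores of 56 and 103.

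Among genes of other receptors and planar polarity, ROR1, a receptor for WNT5A, held a region 398 kb downstream of its start with scores of 81 and 69. PRICKLE2, a planar cell polarity gene, held one with scores of 70 and 91. The target SALL4, a stem cell factor gene, held one with scores of 77 and 44. JUN, also a target and an AP-1 gene, was reached 539 bp from its transcription end by a region with scores of 54 and 37, and a peak of replicate 2 alone, which scored 47, lay 64 bp from its start. Of 26 further genes of the destruction complex and transducers, 3 had a shared region within 100 kb (11.5%, 2.45 to 30.2), against 11.8% of all genes. They are GSK3A, the paralogue of GSK3B, DACT3 and CSNK1D, named here after their values were seen. The region 25.7 kb from GSK3A scored 477 and 815, that 46.4 kb from DACT3 scored 247 and 248, and that 94.1 kb from CSNK1D scored 63 and 98. All 3 regions lay inside or closer to another gene. Inside or at an end, these 26 genes had 0 shared regions (upper exact 95% bound 13.2%), where the shares over all genes were 2.8% and 1.05%. CSNK1G1 held a peak of replicate 1 alone inside the gene, which scored 95, percentile 63.5. Of the 15 extracellular inhibitor genes, 1 had shared regions within 100 kb (6.67%, 0.169 to 31.9), against 11.8% of all genes. That gene was SOST, with the closest region at 82.3 kb. Inside or at an end the 15 inhibitor genes had 0 shared regions (upper bound 21.8%), against 2.8% and 1.05% of all genes. SFRP2 held a peak of replicate 2 alone that scored 52. CSNK1G1, SOST and SFRP2 were also named after their values were seen.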

How the data were processed

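Per the labels' protocols, chromatin of formaldehyde-fixed cells was sheared by sonication, and the libraries were PCR-amplified and selected by size. The submitters' processing notes name bcl2fastq 2.20.0.422, Bowtie2 2.3.4.1, MACS2 2.1.2 and hg38; their settings, the treatment of PCR duplicates, which could change scores, the use of the input and the antibody were not given in the sources used here. The authors deposited a peak list per ChIP replicate with a whole-number score per peak. The scale of this score is unstated, so it serves here to order the peaks of the same list.

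Starts were converted to count from 1. Peaks overlapping by at least 1 bp were joined into shared regions. Genes came from RefSeq (GRCh38.p14, 58961 genes on assembled chromosomes). Strand and starts came from RefSeq promoter windows, present for 30 of 47 members; for NLK, LGR5 and FGF9 the direction is general knowledge. In the list of other pathway genes 2 names were matched through a synonym, and 1 name repeated another gene. The members and lists were chosen with earlier results of these data known. Every member is named; other pathway genes are named where a shared region lies inside or at an end, with the exceptions stated beside them. The promoter window of LOC105371709 was chosen after the peaks were seen. Counting was tested on simulated data. The alternatives were other overlap rules, windows and flanks, the upper scores of each list, each replicate alone, another measure of the nearest gene, neighbouring regions counted once, leaving out the richest gene and another class assignment. No batch is given in the labels. Python 3.11.15.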

Additional observations from a re-analysis of the deposited data

How the results depend on the processing

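Of 72 recomputed values, 64 stayed within 1.5 times the reported count or, for regions per Mb, within its counting interval. A count of 0 that stayed 0 was taken as unchanged, and the interval for regions per Mb was wide (0.499 to 1.69). The rule did not use the all-gene value, so the 64 says little about stability. The count of members within 100 kb ranged from 7 to 13 (6.12% and 16.6% of all protein-coding genes at those settings) and of nearest members from 5 to 8 (2.65% and 6.64%). Members with a region inside numbered 3 or 4, with 1.41% to 3.71% of all genes; regions per Mb ranged from 0.643 for the upper scores to 1.37 without replicate 1, where all protein-coding genes had 0.247 and 0.719. In 8 of the 72, printed with their settings beside the results, the all-gene value lay below the members' interval. With a 500 bp window 0 members had a region at an end, against 0.831% of all genes, since the NLK region is 896 bp away. Ligands within 100 kb fell to 1 with 50% reciprocal overlap (11.4% of all genes at that setting). They also fell to 1 when peaks below each list's median score were dropped, where receptors fell to 2 (6.12% of all genes). Targets fell to 1 with a 50 kb flank, where the share of all genes fell from 11.8% to 7.54%. With AXIN2, LGR5, RNF43 and ZNRF3 counted as targets, receptors numbered 2 (16.7%) and targets 4 (40%), against 11.8% of all genes. These moved genes were picked by hand. For the destruction complex and transducers the count was 0 without replicate 2 (14.1% of all genes). It was 1 without replicate 1 (CTNNB1), where 16.6% of all genes were counted. With 47 genes, 2 peak lists and no read counts, differences of a few genes cannot be resolved, and peaks below the authors' threshold are not seen.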
